A study of Mus musculus with 9 samples.

Results

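The 9 genes described here are adult globin and erythroid genes: Hbb-bs, Hbb-bt, Hba-a1, Hba-a2, Alas2, Slc4a1, Klf1, Gata1 and Tspan33. They were chosen by name, all 9 were found among the 50508 genes of the count table, and all 9 passed the filter on low counts that kept 14708 genes. RNA was measured in TDC, the population under study, and in 2 control populations, conventional dendritic cells (DC) and conventional T cells (T), each sorted from spleens of untreated mice aged 8 weeks. All mice carried the Zbtb46-GFP reporter on both alleles, in which green fluorescent protein is made from the locus of the dendritic cell transcription factor Zbtb46, so that no group lacks the reporter. Each group had 3 libraries, made from pools of 5 spleens for replicate 1 and of 6 for replicates 2 and 3. The sources used here give no sorting gates. Because nothing ties a pool to its animals, the p-values reflect how far pools differ, part of which may be technical.

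Red cell precursors make haemoglobin, a tetramer of alpha and beta globin chains that each hold a heme group. Heme synthesis in these cells starts with the erythroid enzyme encoded by Alas2, while GATA1 and KLF1 are the DNA-binding factors that switch on globin, heme and membrane genes, KLF1 through CACCC-type sequences and GATA1 through GATA sequences. Slc4a1 encodes band 3, the anion exchanger of the red cell membrane, and Tspan33 encodes a tetraspanin that mice need for normal red cell production and that is also used outside the erythroid line. In the mouse the splenic red pulp supports red cell production in adult life, and its macrophages engulf aged red cells and recycle their iron. GATA1 also acts in megakaryocytes, mast cells and eosinophils.

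The stretches of DNA just before the starts of these genes are shown because the genes were high in the same libraries, with Tspan33 shown as the one with another order of levels. Each is the 150 bases before the RefSeq start in the mouse build GRCm38.p6, 5′ to 3′ on the strand of the gene. Capitals mark matches on either strand to the CACCC type (spelled CCNCNCCC), to CCAAT, to TATAA, and to a GATA word, which is AGATAA or AGATAG or either of these with T as the first letter.
Hbb-bs (chr7:103827929-103828078, minus strand): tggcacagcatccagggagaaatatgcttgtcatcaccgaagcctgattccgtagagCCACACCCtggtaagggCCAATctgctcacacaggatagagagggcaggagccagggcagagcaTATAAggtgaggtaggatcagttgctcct
Hbb-bt (chr7:103813924-103814073, minus strand): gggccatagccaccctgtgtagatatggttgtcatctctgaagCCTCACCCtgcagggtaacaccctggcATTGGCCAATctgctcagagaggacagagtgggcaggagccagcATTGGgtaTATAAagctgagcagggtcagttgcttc
Hba-a1 (chr11:32283522-32283671, plus strand): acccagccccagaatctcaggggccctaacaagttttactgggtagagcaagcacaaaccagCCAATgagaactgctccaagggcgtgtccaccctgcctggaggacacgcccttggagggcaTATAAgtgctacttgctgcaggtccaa
Alas2 (chrX:150547267-150547416, plus strand): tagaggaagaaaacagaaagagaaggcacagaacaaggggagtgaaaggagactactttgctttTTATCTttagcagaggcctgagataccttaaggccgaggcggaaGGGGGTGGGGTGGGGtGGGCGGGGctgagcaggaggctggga
Klf1 (chr8:84901832-84901981, plus strand): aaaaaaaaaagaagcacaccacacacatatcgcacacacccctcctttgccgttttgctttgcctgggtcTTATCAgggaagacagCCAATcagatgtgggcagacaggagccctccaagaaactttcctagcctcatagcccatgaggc
Tspan33 (chr6:29694064-29694213, plus strand): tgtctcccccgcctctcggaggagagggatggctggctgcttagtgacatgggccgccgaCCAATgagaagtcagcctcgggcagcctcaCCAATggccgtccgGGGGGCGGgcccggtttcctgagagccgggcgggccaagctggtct
A TATAA word stood in this window of all 4 globin genes, against 14.2% of the same window before 32851 RefSeq starts. CCAAT stood in the windows of the 4 globin genes, Klf1 and Tspan33, against 24.5% of promoters. The CACCC type was matched before Hbb-bs, Hbb-bt, Alas2, Gata1 and Tspan33, against 38.1% of promoters, and 4 matches before Alas2 lay close together, some of them overlapping. The spelling CCNCNCCC also takes in words that do not hold CACCC itself, such as the match before Tspan33 and the last of those before Alas2. Of the 8 genes with a RefSeq promoter, Alas2 and Klf1 held a GATA word, against 5255 of the 32851 promoters. Over 250 bases the promoters of Hba-a1 and Hba-a2 were identical at all 247 aligned bases, while those of Hbb-bs and Hbb-bt were identical at 73.3% of the aligned bases. Such matches describe letters in a window and do not show that a factor binds there.

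All 9 genes are protein-coding, with loci taken from the GENCODE M21 annotation of GRCm38, whose gene starts can differ from the RefSeq starts used above. The beta globin genes Hbb-bs (chr7:103826534-103828096) and Hbb-bt (chr7:103812524-103813996) are neighbours on the minus strand, and the alpha globin genes Hba-a1 (chr11:32283511-32284465) and Hba-a2 (chr11:32296489-32297298) are neighbours on the plus strand. Alas2 lies at chrX:150547375-150570638, Slc4a1 at chr11:102348824-102366203, Klf1 at chr8:84901928-84905291, Gata1 at chrX:7959260-7978071 and Tspan33 at chr6:29694222-29718559. The globin copies are hard to tell apart by short reads. Transcripts of Hba-a1 and Hba-a2 were identical at 99.8% of aligned bases, and those of Hbb-bs and Hbb-bt at 92.7%. Counts of a single copy are therefore uncertain, and the copies were also tested as sums. Of the 9 genes, Alas2 alone overlaps other annotated genes, Apex2 and Mir3620 on the opposite strand, which had 537, 991 and 800 reads (Apex2; TDC, DC and T) and 0 reads (Mir3620) in all.

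Between 10986544 and 25676640 reads per library fell in genes. Levels are given as CPM, counts scaled to a common library size with TMM factors, and 1 read equalled 0.0382 to 0.0896 CPM. T cell markers summed to 80.3 to 268 CPM in TDC libraries, 22.4 to 27.6 CPM in DC and 7411 to 10619 CPM in T cells. DC markers summed to 8293 to 16610 CPM in TDC, 43609 to 72447 CPM in DC and 11.9 to 42.5 CPM in T cells, so both controls carried the markers of their labels. Zbtb46 averaged 7.94 ± 2.22 CPM in TDC, 67.0 ± 40.9 CPM in DC and 1.28 ± 0.304 CPM in T (SD, n = 3 each). Over all tested genes the median log2 fold change was 0.14 for TDC over T and 0.01 for TDC over DC. Scaling by library size alone moved these medians by -0.61 and -0.28, and that of DC over T by -0.29. The share of calls that were higher was then 42.9% in place of 66.0% for TDC over T, 53.1% in place of 67.5% for TDC over DC and 50.2% in place of 64.7% for DC over T.

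**Figure D1:**
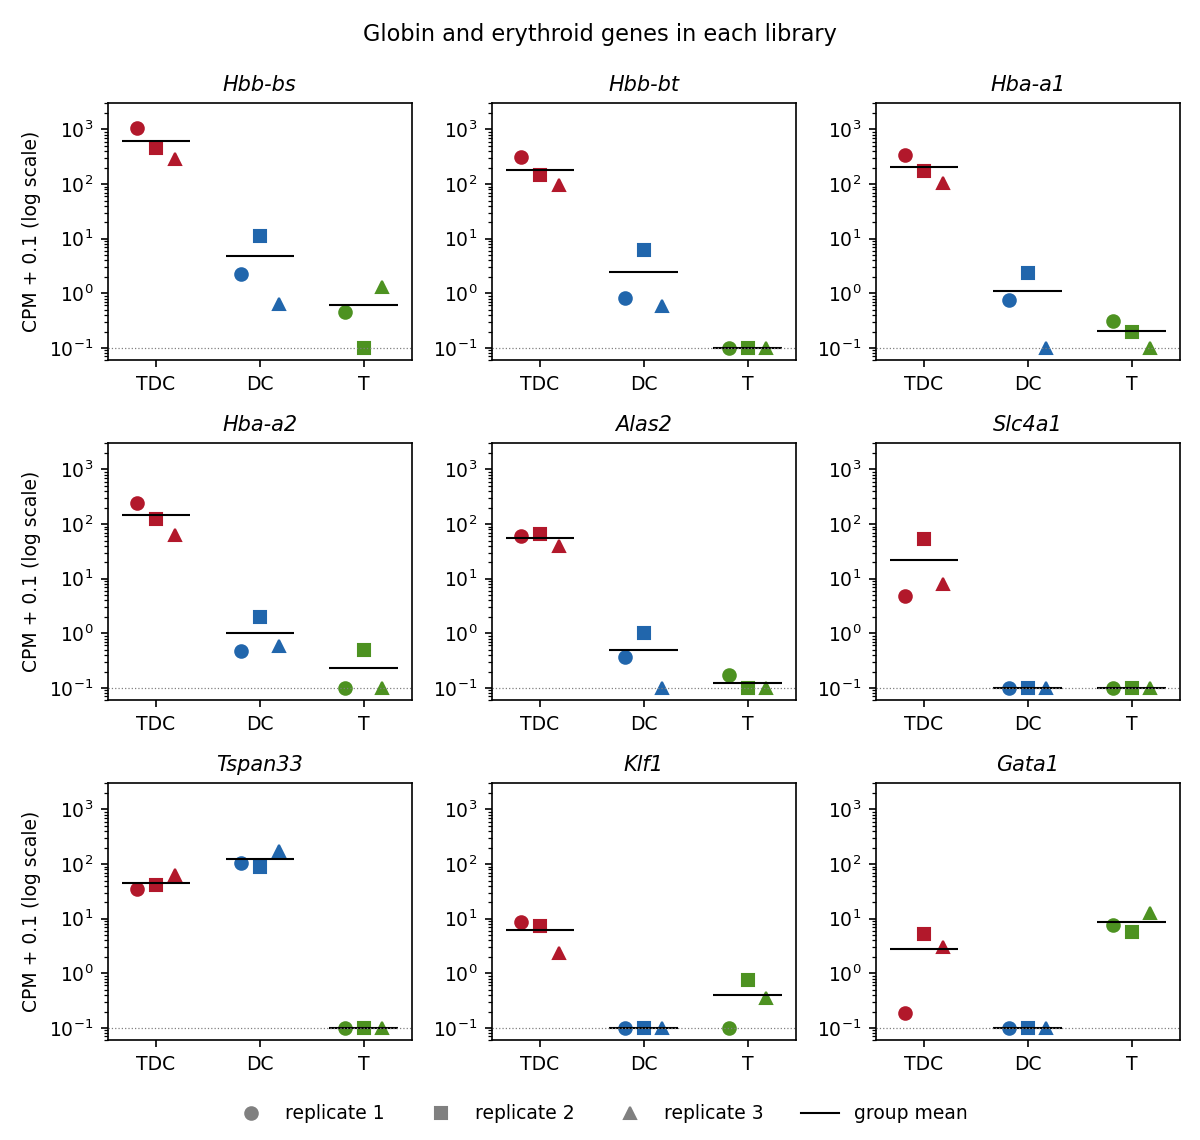
CPM + 0.1 on a log axis for each of the 9 genes in every library, by group (TDC, DC, T), with the replicate number as the symbol and the mean of CPM + 0.1 as the line; the dotted line marks 0 CPM. Hbb-bs lay between 283 and 1085 CPM in TDC libraries, above all DC and T libraries, while Tspan33 was highest in DC.

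TDC carried far more globin RNA than either control. Hbb-bs, the more abundant of the adult beta globin transcripts, had 1085, 454.7 and 283 CPM in TDC libraries (replicates 1, 2 and 3), against 2.14, 11.3 and 0.536 CPM in DC and 0.351, 0 and 1.18 CPM in T cells. The lowest TDC library stood above the highest control library, and the DC and T libraries overlapped. The log2 fold change of Hbb-bs was 10.18 ± 1.51 (SE) for TDC over T (edgeR quasi-likelihood test, Benjamini-Hochberg adjusted p = 0.000615) and 7.04 ± 1.30 for TDC over DC (adjusted p = 0.00561).

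Hbb-bt, the other adult beta globin gene, had 308, 145 and 94.96 CPM in TDC, against 0.726, 5.98 and 0.476 CPM in DC and no read in any T library. Its level in TDC was at least 3093-fold that in T cells (bound computed with 3 reads over the T group; edgeR adjusted p = 0.000430). Over DC its log2 fold change was 6.28 ± 1.08 (edgeR adjusted p = 0.00636). Groups were ordered TDC, DC, T with no overlap of libraries between any pair.

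The alpha globin genes followed the same order of libraries within TDC. Hba-a1 had 347, 176 and 104 CPM in TDC libraries, against 0.650, 2.30 and 0 CPM in DC and 0.211, 0.0986 and 0 CPM in T cells. Hba-a2 had 245, 124 and 62.0 CPM in TDC, against 0.382, 1.88 and 0.476 CPM in DC and 0, 0.395 and 0 CPM in T cells. Replicate 1 was the highest TDC library and replicate 3 the lowest for all 4 globin genes, and the control groups overlapped for both alpha genes. The log2 fold change over T was 11.0001 ± 1.37 for Hba-a1 (edgeR adjusted p = 0.000210) and 9.90 ± 1.21 for Hba-a2 (edgeR adjusted p = 0.000179). Over DC it was 7.77 ± 1.14 for Hba-a1 (edgeR adjusted p = 0.00180) and 7.34 ± 1.04 for Hba-a2 (edgeR adjusted p = 0.00153).

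With the near-identical copies summed, beta globin had a log2 fold change of 10.56 ± 1.53 for TDC over T (edgeR adjusted p = 0.000520) and 6.82 ± 1.28 for TDC over DC (edgeR adjusted p = 0.00608). Without a filter on low counts, the second of these missed the threshold (adjusted p = 0.0543, over all alternatives 1.75e-05 to 0.0543), as did that of Hbb-bs alone (adjusted p = 0.0511, over all alternatives 1.18e-05 to 0.0511). Summed alpha globin had 10.49 ± 1.20 (edgeR adjusted p = 0.000123) and 7.57 ± 1.04 (edgeR adjusted p = 0.00130) in these comparisons. Single libraries moved these folds. Without DC replicate 2, which held most of the globin reads in DC, the log2 fold change of TDC over DC was 8.56 for summed beta and 8.73 for summed alpha globin, and 8.69 for Hbb-bs, 8.12 for Hbb-bt, 9.07 for Hba-a1 and 8.29 for Hba-a2. Without TDC replicate 1 it was 6.17 for summed beta globin, 6.36 for Hbb-bs and 6.73 for Hba-a2. Over T, summed beta globin had 9.89 without TDC replicate 1, 9.96 without T replicate 2 and 12.26 without T replicate 3, and Hbb-bs had 9.48, 9.58 and 11.88. Summed alpha globin over T had 9.89 without T replicate 3, and without T replicate 2 its T group held 3 reads. Hba-a1 over T had 10.40 without T replicate 3. Without T replicate 1 its T group held 2 reads, and all 8 T reads of Hba-a2 came from replicate 2, so no fold is given without these libraries.

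The share of a library's reads that fell in the 4 adult globin genes needs no scaling between libraries. It was 0.144%, 0.0712% and 0.0501% in TDC, against 0.000397%, 0.00188% and 0.000167% in DC and 7.28e-05%, 5.53e-05% and 0.000154% in T cells. The TDC mean was 0.0886% ± 0.0495, the DC mean 0.000814% ± 0.000928 and the T mean 9.40e-05% ± 5.25e-05 (SD, n = 3 each). No TDC library overlapped a control library. DC and T libraries did not overlap either, but the lowest DC and the highest T library held 25 and 23 globin reads, and their counting intervals overlapped. The exact two-sided permutation test gave p = 0.1 for each pair of groups, the smallest p that 3 against 3 libraries allow. In bulk RNA, fewer cells of a type and less RNA per cell cannot be told apart, so these shares do not say whether few or many of the sorted cells held globin RNA.

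**Figure D2:**
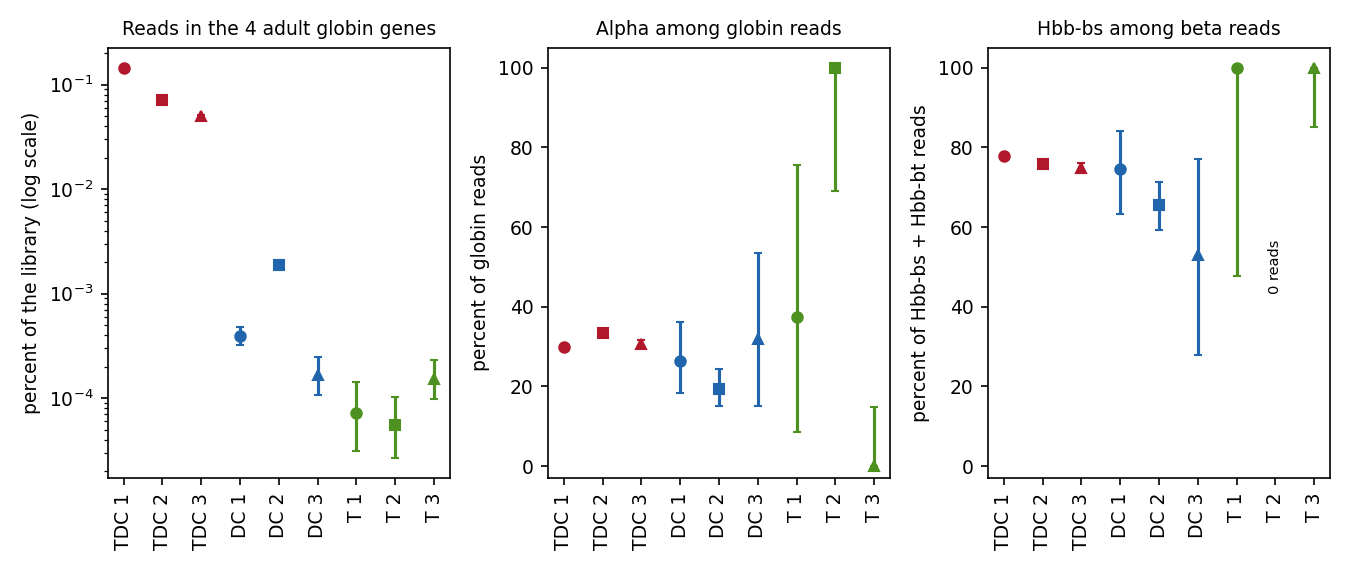
Left, percent of each library's reads in the 4 adult globin genes (log axis); middle, percent of these reads in alpha genes; right, percent of the beta reads in Hbb-bs; bars are exact 95% binomial intervals of counting error. TDC libraries held 0.0501% to 0.144% globin reads, against at most 0.00188% in a control library, and control intervals in the other panels are wide.

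The 3 TDC libraries differed less in the ratio of alpha to beta globin reads than in their totals of globin reads. Alpha genes held 29.8%, 33.3% and 30.6% of the globin reads in TDC replicates 1, 2 and 3. The exact 95% interval of replicate 2 (32.6% to 34.1%) lay above those of replicate 1 (29.2% to 30.4%) and replicate 3 (29.5% to 31.7%). The ratio of alpha to beta reads, which were not divided by transcript length, was 0.424, 0.500 and 0.441 in TDC libraries. It was 0.36, 0.241 and 0.471 in DC libraries, on 102, 309 and 25 globin reads. T cell libraries held 8, 10 and 23 globin reads. The 10 of T replicate 2 were all alpha and the 23 of T replicate 3 were all beta, so no T ratio can be read. Transcripts of the alpha copies were more alike (99.8% of aligned bases) than those of the beta copies (92.7%). If counting dropped reads that fit both copies, the ratios could be changed by this, which was not tested. Hbb-bs made up 77.9%, 75.8% and 74.9% of the beta reads in TDC libraries. With the libraries of a group added, it made up 76.7% of beta reads in TDC (exact 95% interval 76.2% to 77.2%) and 66.9% in DC (61.6% to 71.8%), intervals that cover counting error only. DC replicate 2 alone gave 309 of the 436 globin reads in DC.

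The globin reads of the DC libraries were set beside the other transcripts that TDC held in excess. As a percent of the TDC mean, in CPM with TMM factors, the DC mean of the 4 globin genes was 0.784% (DC libraries 0.130% to 1.88%). It was 0.707% for Alas2, 0.584% for Spic, 0.283% for Hmox1, 0.177% for Vcam1 and 0.0864% for C1qa, the last 4 being genes of red pulp macrophages. Other genes differed widely in this. The macrophage markers Treml4 and Adgre1 averaged 172 and 155 CPM in DC, against 2028 and 2218 CPM in TDC. Slc40a1 and Fcna averaged 4.66 and 1.49 CPM in DC, against 13064 and 9051 CPM in TDC. Klf1 had no read in DC, and the DC mean of Tspan33 was 266% of that in TDC. In T cells the globin mean was 0.0653% of that in TDC. The part of carried-over RNA or cells in these low control levels was not tested.

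Alas2, which makes the erythroid form of the first heme enzyme, had 60.0, 65.7 and 40.0 CPM in TDC libraries, against 0.268, 0.904 and 0 CPM in DC and 0.0702, 0 and 0 CPM in T cells. The TDC libraries lay close together and above every control library. Its log2 fold change was 7.18 ± 1.01 for TDC over DC (edgeR adjusted p = 0.00151). Only 1 read was found in T cells, against 2387 in TDC. The ratio of TDC over T was 3026 with a counting interval of 543 to 119585, and its edgeR adjusted p was 0.000148. Without DC replicate 2 the log2 fold change over DC was 8.39. Alas2 reads per 100 globin reads were 3.03, 7.31 and 7.34 in TDC replicates 1, 2 and 3.

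Slc4a1, the band 3 anion exchanger, had 4.75, 53.1 and 7.81 CPM in TDC and no read in any DC or T library. The groups did not overlap, but replicate 2 held 80.9% of the TDC sum. The level in TDC was at least 470-fold that in T cells (edgeR adjusted p = 0.00470) and at least 499-fold that in DC (edgeR adjusted p = 0.0103). Without TDC replicate 2 these bounds were 115.5 and 122.8, and both calls stood, with adjusted p-values over all single libraries left out of 0.00247 to 0.0145 for TDC over T and 0.00993 to 0.0322 for TDC over DC.

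Klf1, the erythroid activator of beta globin, had 8.78, 7.35 and 2.23 CPM in TDC libraries, no read in DC, and 0, 0.641 and 0.257 CPM in T cells. All TDC libraries exceeded all controls, with TDC replicate 3 the lowest of them. TDC was at least 117-fold higher than DC (edgeR adjusted p = 0.0115). Over T the log2 fold change was 4.29 ± 1.35 (edgeR adjusted p = 0.0399). This call was lost in 8 of 15 alternative analyses, among them leaving out any TDC library or any T library (adjusted p = 0.0548 to 0.112; 0.00324 to 0.112 over all alternatives), and its log2 fold change was 5.43 without T replicate 2.

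Gata1 did not follow the globin genes. It had 0.0896, 5.18 and 2.90 CPM in TDC libraries, no read in DC, and 7.59, 5.72 and 12.9 CPM in T cells. TDC replicate 1, the library with the most globin reads, held 1 Gata1 read, and T cells were the highest group. TDC lay at least 59.7-fold above DC (edgeR adjusted p = 0.0171; 0.0505 without TDC replicate 2, where the bound was 31.08, and 1.51e-05 to 0.0505 over all alternatives). Against T cells the log2 fold change was -1.67 ± 1.14 (edgeR adjusted p = 0.304), so a difference was not shown although the libraries did not overlap.

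Tspan33 was a gene of both TDC and DC. It had 34.4, 41.4 and 61.8 CPM in TDC, against 104, 88.6 and 173 CPM in DC and no read in T cells. The order was DC, TDC, T, with no overlap. TDC exceeded T cells at least 828-fold (edgeR adjusted p = 1.49e-05). Against DC the log2 fold change was -1.41 ± 0.40 (edgeR adjusted p = 0.0492), a call that was lost in 11 of 15 alternatives, among them leaving out any TDC library, DC replicate 1 or 3, or any T library (adjusted p = 0.0149 to 0.165 over all alternatives).

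**Figure D3:**
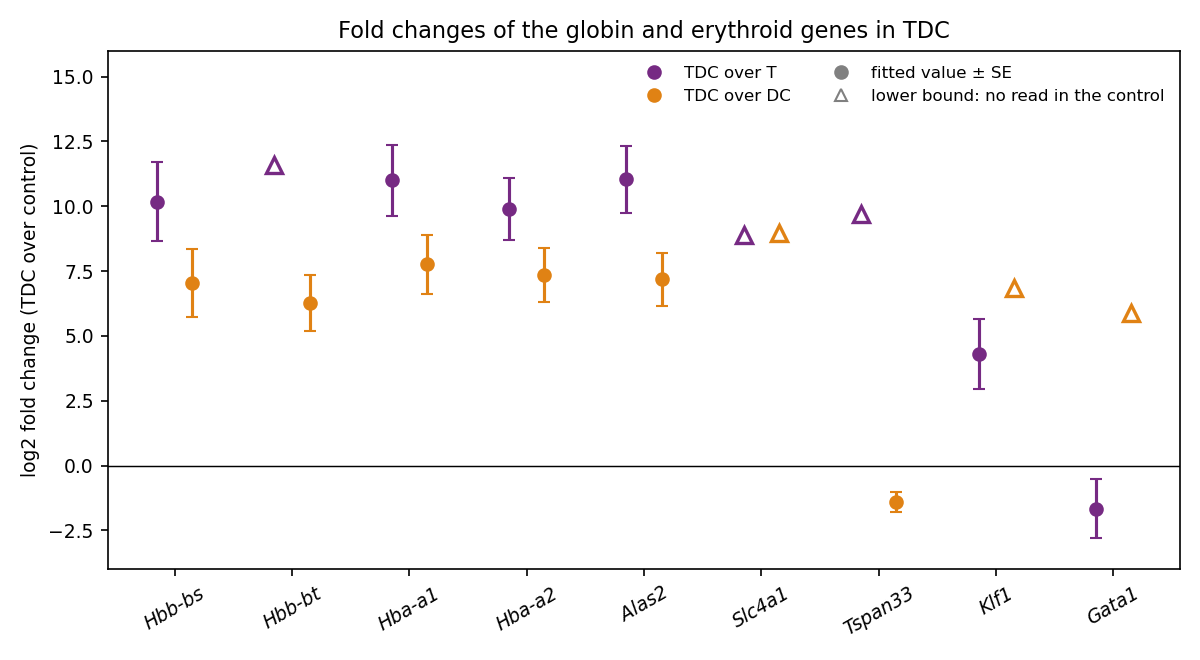
Log2 fold change of TDC over T and of TDC over DC for each gene: circles are fitted values with SE bars, open triangles are lower bounds where the control group had no read. Values for the 4 globin genes and Alas2 over DC lie between 6.28 and 7.77, Tspan33 over DC is at -1.41 and Gata1 over T at -1.67.

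In counts, 8 of the 9 genes were higher in TDC relative to T cells and 0 were lower, against 21.8% and 11.2% of all tested genes (edgeR, Benjamini-Hochberg). The gene not called was Gata1. At an unadjusted p under 0.05 and with the DESeq2 Wald test the count of lower genes was also 0. Against DC, 8 were higher and 1, Tspan33, was lower, against 9.55% and 4.6% of all tested genes. The counts of higher genes were 7 to 8 in each comparison when a single library was left out, as Klf1 over T and Gata1 over DC lost their calls. Libraries did not overlap for any of the 9 genes in either comparison, against 52% of all tested genes for TDC and T and 34.9% for TDC and DC. For Gata1 over DC this rests on the 1 read of TDC replicate 1 against none. The 2 comparisons share the TDC libraries.

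Between the controls, 2 of the 9 genes were higher in DC than in T cells, Hbb-bt (at least 35.4-fold; edgeR adjusted p = 0.0126, or 0.0740 without a filter on low counts and 1.37e-06 to 0.0740 over all alternatives) and Tspan33 (at least 2168-fold; edgeR adjusted p = 1.39e-05), against 15.4% of all tested genes. Gata1 was at least 168-fold lower in DC (edgeR adjusted p = 0.00497), against 8.41% of genes. Libraries of DC and T did not overlap for these 3 genes, against 39.8% of all tested genes. Hbb-bs, Hba-a1, Hba-a2, Alas2 and Klf1 were not called (edgeR adjusted p = 0.0862, 0.101, 0.126, 0.0688 and 0.0620), and Slc4a1 had no read in either group. Without DC replicate 3, Hbb-bs, Hba-a1 and Alas2 were called higher in DC (adjusted p = 0.0326, 0.0162 and 0.0113). Hba-a2 was called without T replicate 2 (0.0350), and Klf1 was called lower in DC without T replicate 1 (0.0332). Over all alternatives the adjusted p ran from 0.0326 to 0.337 for Hbb-bs, 0.0162 to 0.290 for Hba-a1, 0.0311 to 0.330 for Hba-a2, 0.0113 to 0.189 for Alas2 and 0.0186 to 0.168 for Klf1. Summed beta globin had a log2 fold change of 3.75 ± 1.21 for DC over T (edgeR adjusted p = 0.0467), which fell to 1.96 (adjusted p = 0.172) without DC replicate 2 and was lost in 10 of 15 alternatives, among them leaving out TDC replicate 2 or 3, DC replicate 1 or 2, or T replicate 1 or 2 (adjusted p = 0.0184 to 0.191 over all).

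The TDC libraries differed from each other in which erythroid transcripts they held. Replicate 1 held 55.3% to 59.5% of the summed CPM of each globin gene. Replicate 2 held 80.9% of Slc4a1 and 63.4% of Gata1. Some cytoskeletal genes that anchor the membrane, shown after their values were seen, were also mostly in replicate 2. It held 81.8% of Epb42 (protein 4.2), 74.2% of Sptb (beta spectrin) and 73.4% of Ank1 (ankyrin), on 221, 169 and 57 TDC reads. Replicate 2 also held 71.2% of Aqp1 (the water channel) and 74.6% of Car1 (carbonic anhydrase 1). Others of the membrane and cytoskeleton list were highest in replicate 1, among them Kel (52.2%), Rhd (49.1%) and Dmtn (46.6%). Tmem14c, which carries heme precursors into mitochondria, had 59.0% in replicate 1, and Blvrb, a biliverdin reductase, had 54.3%. Among 8729 genes with at least 10 CPM in TDC, replicate 1 was the highest for 42.4%, replicate 2 for 38.0% and replicate 3 for 19.6%. Such differences were not particular to erythroid genes. C1qb had 15462, 7235 and 6273 CPM in TDC replicates 1, 2 and 3, and Axl had 1545, 7314 and 2745 CPM. How large a share a typical gene had in its highest library was not computed. Of 8 neutrophil markers, S100a9 was at 39.2, 2.84 and 0.0744 CPM in TDC replicates 1, 2 and 3. Mpo was highest in replicate 2, at 0.390 CPM, and 3 markers (Ly6g, Camp and Ltf) had no read in TDC. The part of neutrophils in the result was not tested.

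**Figure D4:**
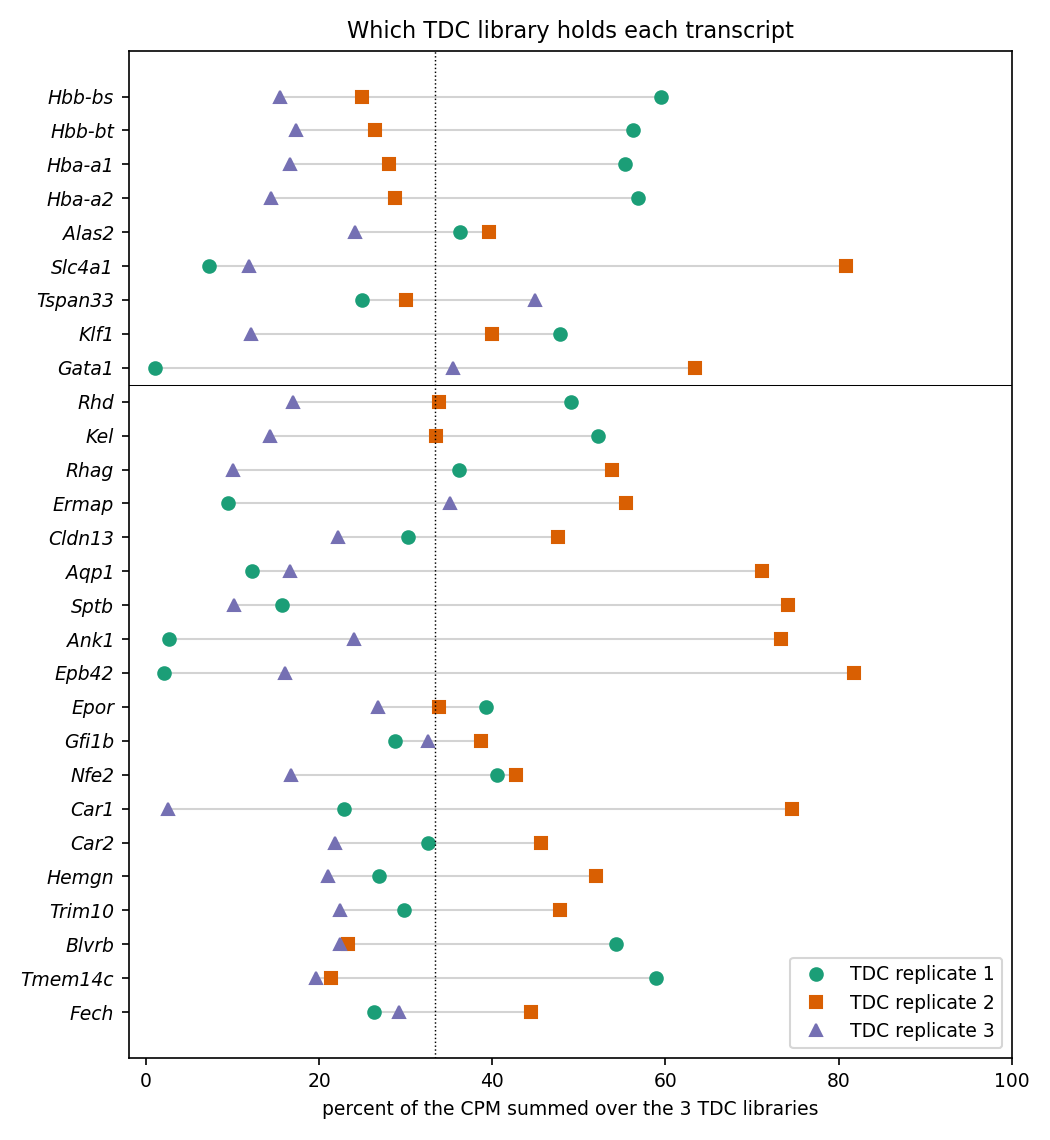
Percent of the CPM summed over the TDC libraries that each library held, for the 9 genes (above the line) and further erythroid genes of the lists (below it, picked after their values were seen); the dotted line marks an equal share in each library. Globin genes lie furthest right in replicate 1, Slc4a1 and Epb42 in replicate 2 (80.9% and 81.8%).

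Genes of the erythroid programme other than the 9 were read from 6 lists, with 80 genes found and 60 tested. In TDC against T cells 27 were higher and 2 lower, beside 21.8% and 11.2% of all tested genes. In TDC against DC 17 were higher and 6 lower, beside 9.55% and 4.6% of all tested genes. Their median log2 fold change was 1.40 over T and 0.80 over DC, with genes unread in a control set to their bound, beside 0.14 and 0.01 for all genes. Leaving out TDC replicate 2 brought the 17 to 10, and leaving out DC replicate 1 brought the 6 to 3. Many of these genes are used in other cells too.

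Of 22 red cell membrane and cytoskeleton genes found, 15 other than Slc4a1 and Tspan33 were tested, with 9 higher and 0 lower in TDC relative to T cells by edgeR (1 lower, Gypc, at an unadjusted p under 0.05, and 1 lower by the Wald test), and 6 higher and 1 lower than in DC. Over all tested genes the shares were 21.8% higher and 11.2% lower against T, and 9.55% and 4.6% against DC. Rhd, a Rhesus blood group gene, had 17.6, 12.1 and 6.10 CPM in TDC, no read in DC, and 0.351, 0.444 and 0.360 CPM in T cells (edgeR adjusted p = 0.00286 over T and 0.00116 over DC).

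Rhag, the Rhesus-associated glycoprotein gene, had 6.18, 9.19 and 1.71 CPM in TDC, against 1 read in DC and none in T (edgeR adjusted p = 0.00841 over DC and 0.00257 over T). Ermap, an erythroid adhesion protein gene, had 2.24, 13.1 and 8.33 CPM in TDC and was called over T (edgeR adjusted p = 0.0245) but not over DC (0.0951). The call over T was lost in 5 of 15 alternatives (adjusted p = 0.000868 to 0.0802), among them without TDC replicate 2 or 3 or T replicate 2 or 3. Gypc, the glycophorin C gene, was lower in TDC relative to DC, at 13.1 ± 2.84 against 35.5 ± 11.1 CPM (SD, n = 3 each; edgeR adjusted p = 0.0285), a call lost in 6 of 15 alternatives (adjusted p = 0.00123 to 0.115), among them without TDC replicate 1 or 2 or DC replicate 1. Ank1 averaged 1.14 CPM in TDC, 0.586 CPM in DC and 0.0329 CPM in T and was not called (edgeR adjusted p = 0.717 over DC and 0.0567 over T). Epb42 averaged 4.31, 0.412 and 0.377 CPM in TDC, DC and T and was not called (edgeR adjusted p = 0.257 over DC and 0.169 over T).

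Among 15 tested regulators other than Klf1 and Gata1, 5 were higher and 2 lower in TDC relative to T cells, and 2 were higher and 4 lower than in DC. Beside these stand 21.8% higher and 11.2% lower of all tested genes against T, and 9.55% and 4.6% against DC. Epor, the erythropoietin receptor, had 136, 117 and 92.6 CPM in TDC, no read in DC, and 0.140, 1.28 and 0 CPM in T cells. It was at least 2178-fold higher than in DC (edgeR adjusted p = 0.00135), with a log2 fold change of 7.85 ± 1.12 over T (edgeR adjusted p = 0.00109). Gfi1b, a repressor used by erythroid and megakaryocytic cells, had 2.24, 3.01 and 2.53 CPM in TDC and no read in either control (edgeR adjusted p = 0.0147 over DC and 0.00708 over T). Without TDC replicate 2 or 3, or with the replicate number as a block, the call over DC was lost (adjusted p = 0.000922 to 0.0747 over all alternatives). Tal1, a partner of GATA1, had 14 reads in TDC, 1 in DC and 0 in T and was not tested. Nfe2 averaged 4.87 CPM in TDC, 4.24 CPM in DC and 1.15 CPM in T and was not called (edgeR adjusted p = 0.958 over DC and 0.366 over T).

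The regulators lower in TDC relative to DC were the corepressor gene Cbfa2t3 (10.7 against 134 CPM; edgeR adjusted p = 0.00586), Bcl11a, a repressor of fetal globin genes (7.33 against 102 CPM; adjusted p = 0.00738), the kinase gene Jak2 (80.7 against 479 CPM; adjusted p = 0.0191) and E2f2, named after its values were seen. The call of Jak2 was lost without TDC replicate 2, DC replicate 1 or DC replicate 3 (adjusted p = 0.000381 to 0.058 over all alternatives). Against T cells, TDC were lower for Ldb1, a cofactor of GATA1 complexes (48.7 against 164 CPM; edgeR adjusted p = 0.000924), and Myb, a progenitor factor (3.06 against 26.1 CPM; adjusted p = 0.00191). Cbfa2t3, at 10.7 CPM in TDC with no read in T, and Lmo2, at 51.8 CPM in TDC with 1 read in T, were higher in TDC relative to T cells (edgeR adjusted p = 0.000233 and 4.03e-06). Lmo2 was highest in DC, at 108 CPM, and was not called between TDC and DC (edgeR adjusted p = 0.0896).

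Of 13 tested heme synthesis genes other than Alas2, 5 were higher in TDC relative to T cells, beside 21.8% of all tested genes. Against DC 2 of them were higher, beside 9.55% of all tested genes. By edgeR 0 were lower in either comparison, beside 11.2% over T and 4.6% over DC. At an unadjusted p under 0.05, 0 were lower than in T cells and 1, Slc25a38, was lower than in DC, and the Wald test called 0 lower in both. Fech, the enzyme that inserts iron into the porphyrin ring, averaged 88.0 ± 25.8 CPM in TDC, 32.0 ± 7.96 CPM in DC and 29.7 ± 9.17 CPM in T (SD, n = 3 each; edgeR adjusted p = 0.0245 over DC and 0.00859 over T). Its call over DC was lost in 6 of 15 alternatives (adjusted p = 0.00191 to 0.124), among them without TDC replicate 2 or 3 or DC replicate 2 or 3, and that over T with library size alone (0.0808, the highest of 0.00049 to 0.0808). Tmem14c had 938, 341 and 312 CPM in TDC, against 123, 183 and 61.8 CPM in DC and 91.7, 137 and 70.6 CPM in T cells (edgeR adjusted p = 0.0255 over DC and 0.00691 over T). The call over DC was lost without TDC replicate 1, DC replicate 1 or DC replicate 3 (adjusted p = 0.000961 to 0.0791 over all alternatives). Alas1, the form of the first enzyme used by cells in general, was higher than in T cells at 92.3 against 27.4 CPM (edgeR adjusted p = 0.00182) but was not called over DC (49.3 CPM; adjusted p = 0.0776). Whether its difference from T cells differs from that from DC was not tested.

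Of 13 tested late erythroid genes, 6 were higher in TDC relative to T cells, and 6 were higher and 1 lower than in DC. Among all tested genes 21.8% were higher against T, and 9.55% were higher and 4.6% lower against DC. Car2, carbonic anhydrase 2, had 84.5, 118 and 56.7 CPM in TDC, against 13.6, 30.8 and 4.94 CPM in DC and 6.95, 15.04 and 12.2 CPM in T cells (edgeR adjusted p = 0.0271 over DC and 0.00558 over T). Without TDC replicate 2 or DC replicate 1 it was not called over DC (adjusted p = 0.000914 to 0.0936 over all alternatives). Blvrb, which also serves heme breakdown in macrophages, averaged 616 ± 336 CPM in TDC, 8.73 ± 5.33 CPM in DC and 6.10 ± 1.10 CPM in T (SD, n = 3 each; edgeR adjusted p = 0.000273 over DC and 3.30e-05 over T). Hemgn, a nuclear protein of erythroid cells, had 4.39, 8.46 and 3.42 CPM in TDC, no read in DC, and 1.62, 1.87 and 2.52 CPM in T cells. It was called over DC (edgeR adjusted p = 0.00234) and not over T (0.222).

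Prdx2, a peroxidase abundant in red cells, was called over T (270.0 against 105.3 CPM; edgeR adjusted p = 0.0425) and not over DC (111 CPM; adjusted p = 0.0922). The call over T was lost in 7 of 15 alternatives (adjusted p = 0.0172 to 0.153), among them leaving out TDC replicate 1, DC replicate 1 or any one T library. Fam46c was lower in TDC relative to DC, at 34.2 against 261 CPM (edgeR adjusted p = 0.00243). For iron uptake, Steap3, the ferrireductase of the transferrin cycle, averaged 6.79 CPM in TDC and was higher than in DC (0.0127 CPM; edgeR adjusted p = 0.0101) and T cells (0.117 CPM; adjusted p = 0.0121). The transferrin receptor Tfrc had 17.2, 61.9 and 30.5 CPM in TDC, against 107, 30.8 and 113 CPM in DC and 41.7, 27.3 and 13.1 CPM in T cells. Its groups overlapped, and it was not called (edgeR adjusted p = 0.244 over DC and 0.647 over T).

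Embryonic globin RNA was near 0. Of 11 further globin genes found, 7 had no read in TDC, and Hbq1b, a theta globin gene named after its values were seen, had 25 reads in TDC and 0 in both controls. Cygb, a globin of tissues other than red cells, was the one gene of the list tested, at 58, 22 and 0 reads in TDC, DC and T, and was called over T (edgeR adjusted p = 0.0256) but not over DC (0.417). The call over T was lost in 6 of 14 alternatives (adjusted p = 0.0102 to 0.08), among them leaving out TDC replicate 2 or 3 or any one T library. The haemoglobin stabiliser gene Ahsp was not analysed here.

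**Figure D5:**
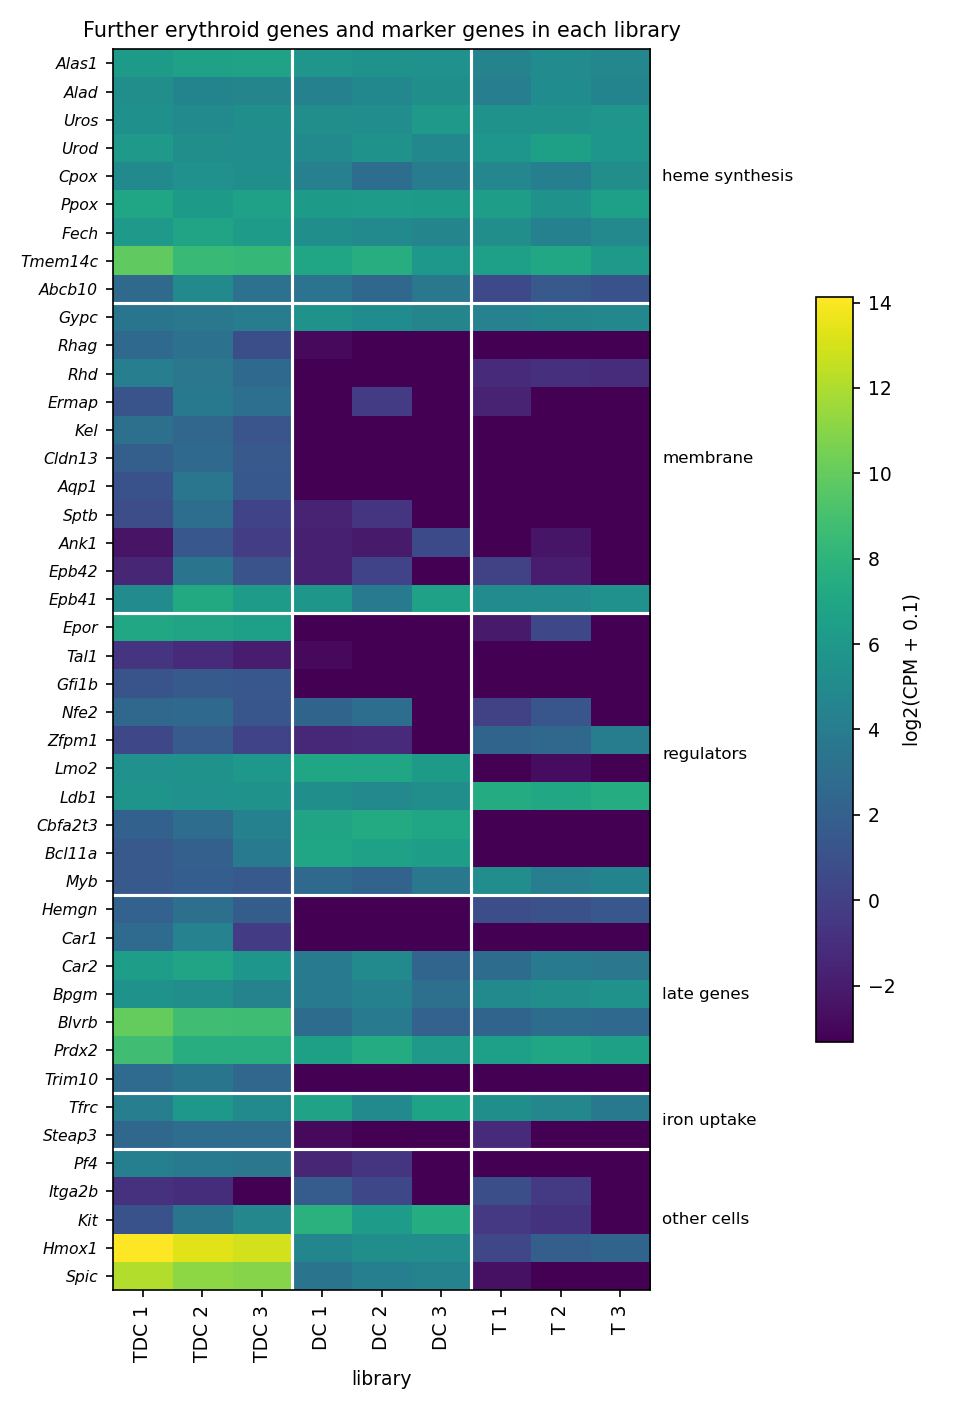
Log2(CPM + 0.1) of further erythroid genes and of marker genes of other cells (rows, grouped by list) in each library (columns: TDC, DC, T). Kel, Cldn13, Aqp1, Gfi1b, Car1 and Trim10 had reads in all 3 TDC libraries and none in a control library, whereas Kit, Bcl11a and Cbfa2t3 were highest in DC.

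Markers of other cells were read in the same libraries. All 12 red pulp macrophage markers were higher in TDC than in either control, beside 21.8% (T) and 9.55% (DC) of all tested genes. Their sum was 56463 to 97217 CPM in TDC, 376 to 466 CPM in DC and 2.81 to 5.33 CPM in T cells, and no marker was at 0 in TDC. Spic, the factor that defines these macrophages, averaged 2883 CPM in TDC, 16.8 CPM in DC and 0.0234 CPM in T. Hmox1, the heme-degrading oxygenase, averaged 11932 CPM in TDC, 33.7 CPM in DC and 3.28 CPM in T. The part of these cells in the globin result was not tested.

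Of 14 megakaryocyte and platelet markers, 5 were tested, 3 of them higher in TDC relative to T cells and 2 higher than in DC. The shares of all tested genes were 21.8% and 9.55%. The sum of the 14 markers was 226 to 445 CPM in TDC, 17.7 to 26.3 CPM in DC and 0 to 3.72 CPM in T cells. Clec1b gave 392, 205 and 170 CPM of it in TDC, and Pf4, a platelet chemokine, 18.01, 15.1 and 12.2 CPM. The call of Pf4 over DC was lost without DC replicate 1 (adjusted p = 0.0542, the highest over all alternatives from 1.65e-08), and that of Clec1b without a filter on low counts (0.118, the highest from 0.00219). Itga2b, which defines the lineage, had 12 reads in TDC, 102 in DC and 38 in T, and 4 markers had no read in TDC. Of 9 mast cell and basophil markers, 7 had no read in TDC, and their sum was 1.503 to 1.86 CPM in TDC, 4.82 to 14.9 CPM in DC and 3.29 to 3.79 CPM in T cells. None of 12 cell cycle genes was called in TDC against T cells or against DC (edgeR). At an unadjusted p under 0.05, 1 was lower than in T cells and 5 were lower than in DC (Birc5, Mcm5, Mki67, Pcna and Tyms), and the DESeq2 Wald test called 1 and 3 lower. By edgeR at adjusted p under 0.05, 11.2% of all tested genes were lower against T and 4.6% against DC. Shares of all genes at an unadjusted p or by the Wald test are not given here, so these lower counts cannot be set beside them. The 12 cell cycle genes summed to 256 to 464 CPM in TDC, 766 to 902 CPM in DC and 279 to 487 CPM in T cells. The part of these cells in the globin result was not tested.

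Genes outside the 9 were ranked by how their levels ran with the summed globin genes. Over the 9 libraries, on log2(CPM + 0.1), among 10064 genes with at least 10 CPM in some group, the highest Pearson r were those of Clec4d (0.995), Mfsd11 (0.993), Ccl7 (0.993), Cryba4 (0.992), Pf4 (0.992), Cxcl1 (0.991), Batf2 (0.991), Ubd (0.989), Wtip (0.989) and Clec1b (0.986). Clec4d averaged 14.9 CPM in TDC, 0.283 CPM in DC and 0 in T cells. In all, 499 genes had an r above 0.9, since much of the spread lies between the 3 groups, which all these genes share. Among the other genes of the 9, which the ranking left out, r was 0.987 for Alas2, above that of Clec1b, 0.90 for Slc4a1, 0.81 for Klf1, 0.58 for Tspan33 and -0.15 for Gata1.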

How the data were processed

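Total RNA of 9 sorted cell samples was sequenced as Lexogen QuantSeq libraries, which read near the 3' ends of transcripts, per the labels' protocols. What the authors deposited is a matrix of raw read counts, with a whole number for each gene in each library. FastQC, MultiQC, Trimmomatic, STAR and featureCounts are named without versions in the submitters' processing notes, and the build named there is hg38, although the samples and gene symbols are mouse. The sources used here do not state the strand setting of the counting, so reads of Alas2 and of the genes opposite it may be mixed.

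Counts were tested with edgeR 4.0.16 in R 4.3.3: filterByExpr (minimum count 10, minimum total 15), TMM factors, and the quasi-likelihood test with robust fitting on the 9 libraries together (6 residual degrees of freedom). P-values were adjusted by Benjamini-Hochberg over 14708 genes and called at 0.05. The common biological coefficient of variation was 0.588. Libraries of a group differed by 46.2 to 189 in chi-square per degree of freedom, so none repeated another. Folds against a group without reads are bounds computed with 3 reads over the group. Intervals and bounds cover counting error only. Globin copies were also summed before the fit, and the globin share of reads was compared by exact permutation. Sequences come from RefSeq (GRCm38.p6) and loci from GENCODE M21; 8 of the 9 genes had a promoter sequence there.

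The 9 genes, the 19 further lists and the tests were chosen with earlier results of these data known. Of 199 listed genes 196 were found, 2 of them under older symbols (Tent5c as Fam46c, Flvcr1 as Mfsd7b). Besides the 9 genes, the text names up to 4 called genes of each list with the highest mean CPM in TDC, called genes that moved against their list's majority, 16 genes fixed by name and the 10 genes most like the globin sum. A few genes that this rule names are not reported here. Alternatives were DESeq2 size factors, library size alone, no filter, the DESeq2 1.42.0 Wald test, a fit of the 2 groups only, the replicate number as a block, and each library left out. No sample or column was left out.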

Additional observations from a re-analysis of the deposited data

How the results depend on the processing

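The calls of the 4 globin genes, Alas2, Slc4a1 and Tspan33 in TDC over T kept their direction and their side of the threshold in all 15 alternatives, as did those of Hbb-bt, Hba-a1, Hba-a2, Alas2, Slc4a1 and Klf1 in TDC over DC. Of the 9 genes, the count lower in TDC relative to DC was 1 and became 0 with DESeq2 size factors, in the fit of the 2 groups and in the replicate block (0 to 1 with a library left out). The count higher in DC than in T was 2 and became 5 with the Wald test and 1 in the fit of the 2 groups (2 to 5 with a library left out). The count lower in DC was 1 and became 2 with library size alone, no filter and the Wald test (1 to 2 with a library left out).

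Summed beta globin for TDC over DC had a log2 fold change of 6.82 without a filter, where it missed the threshold. For DC over T it missed the threshold at 3.27 with library size alone, 3.70 without a filter, 3.70 in the fit of the 2 groups and 3.18 in the replicate block (1.96 to 5.44 with a library left out). Summed alpha globin for DC over T passed it at 2.96 with the Wald test and 2.91 in the replicate block (1.72 to 4.22 with a library left out). Of the erythroid lists without the 9 genes, the count lower in TDC relative to T was 8 with library size alone and 5 with the Wald test (2 to 3 with a library left out). Library size alone called 3320 of the 14708 tested genes lower in TDC relative to T, against 1654 in the main analysis. The counts for TDC against DC were 10 to 17 higher and 3 to 5 lower with a library left out. Those for DC against T were 9 higher and 7 lower in the main analysis, beside 15.4% and 8.41% of all tested genes. They were 5 higher and 4 lower in the replicate block, and 4 to 9 higher and 4 to 6 lower with a library left out. Shares of all genes by the Wald test, in the block or with a library left out are not given here.

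Directions reversed for Ank1 over DC without TDC replicate 2 (-0.40), for Tfrc over T with library size alone (-0.18) and without TDC replicate 2 (-0.20), and for Nfe2 over DC with library size alone (-0.0363), without TDC replicate 2 (-0.05) and without DC replicate 3 (-0.38). With a library left out, the values ran up to 2.74 for Ank1, 0.86 for Tfrc and 0.97 for Nfe2. The cause was not tested. The columns of the count table name TDC, DC and T of a replicate number by a common prefix and their pool sizes match, but the labels do not say that they share a pool or a sort, so whether the numbers pair the libraries is not known. Correlations of deviations from the group means between libraries of the same number ran from -0.38 to 0.22. With the replicate number as a block, Klf1 for TDC over T had a log2 fold change of 4.47 (edgeR adjusted p = 0.0882) and Tspan33 for TDC over DC one of -1.39 (adjusted p = 0.0609). At this depth, groups without reads allow only bounds, and 3 libraries a group limit all p-values.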

Other observations

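Genes for the handling of heme and iron, and for holding or engulfing red cells, were read from lists of their own. Of 9 genes for heme breakdown and iron export or storage, 9 were higher in TDC relative to T cells and 7 were higher than in DC (edgeR, adjusted p under 0.05). Among all tested genes these shares were 21.8% and 9.55%, which also stand beside the other list of this paragraph. By edgeR 0 of the 9 were lower in either comparison, beside 11.2% of all tested genes against T and 4.6% against DC. The DESeq2 Wald test called 1 of the 9 lower than in DC. Flvcr1, named after its values were seen, averaged 57.0 CPM in TDC and 143 CPM in DC, a pair not called by edgeR. Slc40a1, the iron exporter ferroportin, averaged 13064 ± 4922 CPM in TDC, 4.66 ± 1.47 CPM in DC and 0.460 ± 0.797 CPM in T (SD, n = 3 each). Ftl1, the ferritin light chain, averaged 8242 CPM in TDC, 1508 CPM in DC and 606 CPM in T, and Fth1, the heavy chain, 10997 CPM in TDC and 4338 CPM in DC, a pair not called (edgeR adjusted p = 0.140). Slc11a1, a metal transporter of the phagosome, averaged 1925 CPM in TDC, 60.0 CPM in DC and 0 in T cells. Of 9 genes by which macrophages bind erythroblasts or engulf dying cells, 8 were higher in TDC relative to T cells and 7 were higher than in DC. Vcam1, an adhesion molecule of erythroblastic islands, averaged 11899 CPM in TDC, 21.03 CPM in DC and 0.140 CPM in T. The engulfment receptors Mertk, Axl and Timd4 averaged 887, 3868 and 429 CPM in TDC and at most 5.51 CPM in either control. Among the macrophage markers, C1qb averaged 9657 CPM in TDC, 6.44 CPM in DC and 0.0234 CPM in T.

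Of 6 tested early progenitor genes, 3 were higher and 1 lower in TDC relative to T cells, and 0 were higher and 1 lower than in DC by edgeR, with 1 higher (Cd48) at an unadjusted p under 0.05 and 1 by the DESeq2 Wald test. For this and the following lists, the shares of all tested genes were 21.8% higher and 11.2% lower against T. Against DC they were 9.55% and 4.6%. Kit, the stem cell factor receptor, averaged 13.3 CPM in TDC, 161 CPM in DC and 0.375 CPM in T (edgeR adjusted p = 0.0289 over DC and 0.00503 over T). Meis1 and Cd48 were higher and Slamf1 was lower in TDC relative to T cells. Meis1 averaged 6.96 CPM in TDC and 8.25 CPM in DC, a pair not called. The calls of Cd48 (adjusted p = 0.02 to 0.289 over all alternatives) and Slamf1 (0.000205 to 0.133) were each lost in 8 of 15 alternatives, among them leaving out any one T library, TDC replicate 1, DC replicate 1 (Cd48), or TDC replicate 2 or 3 (Slamf1). That of Kit over DC was lost in 4 of 15, among them without TDC replicate 2 or DC replicate 1 (0.000718 to 0.116). Hdc was the mast cell and basophil marker called, lower in TDC relative to DC, and this call was lost in 11 of 15 alternatives, among them leaving out any one TDC or T library or DC replicate 1 or 2 (adjusted p = 0.00153 to 0.158). Of 5 eosinophil markers, Ccr3 was higher in TDC (1248 CPM) than in DC (1.95 CPM) and T cells (0 CPM), while Prg2, Epx and Il5ra had no read in TDC. Among platelet markers Vwf averaged 54.5 CPM in TDC, 16.7 CPM in DC and 0 in T cells. Of 8 neutrophil markers, 3 (Ly6g, Camp and Ltf) had no read in TDC, and S100a9 was tested, higher than in T cells and not called over DC. Its call was lost in 5 of 14 alternatives, among them leaving out TDC replicate 1 or any one T library (adjusted p = 0.00161 to 0.0998). Of 4 tested B cell markers, 2 (Cd79b and Ms4a1) were higher in TDC relative to T cells and 1 (Ms4a1) was lower than in DC. Of 3 tested NK cell markers, 2 (Klrb1c and Eomes) were lower in TDC relative to T cells and 0 were called against DC by edgeR, with 2 higher (Eomes and Gzma) at an unadjusted p under 0.05 and 1 by the Wald test. Klrb1c was not called over T when any one TDC library, or T replicate 2 or 3, was left out (adjusted p = 0.000835 to 0.0866 over all alternatives). All 8 T cell markers were lower in TDC relative to T cells, and 7 were higher than in DC, for example Cd3g, Trac, Lat and Lck, at 29.5, 25.9, 27.1 and 56.3 CPM in TDC. Of 8 DC markers, 7 were higher in TDC relative to T cells, among them Itgax, Cd74, H2-Ab1 and Batf3, and 3 (Zbtb46, Flt3 and Xcr1) were lower than in DC. The call of Flt3 over DC was lost without TDC replicate 2 or without a filter on low counts (adjusted p = 5.62e-05 to 0.0677 over all alternatives). Without a filter, those of Ccr3 (0.0858, the highest from 0.000125) and Timd4 (0.14, the highest from 0.000355) over DC were lost too. That of Ftl1 over DC was lost without TDC replicate 1, DC replicate 1 or DC replicate 3 (0.000266 to 0.0743).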
